A study of Mus musculus with 6 samples.

Results

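The cytotoxic effector genes described here are the 10 genes Gzma, Gzmb, Gzmk, Prf1, Nkg7, Ctsw, Fasl, Ifng, Tbx21 and Eomes. They were chosen by gene symbol from a list of known effector genes, and all 10 were among the 22298 genes listed in the deposited tables. A filter on low counts left 14121 genes for testing, and 8 of the 10 passed it; Gzmk and Ifng did not.

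Cytotoxic lymphocytes, mainly natural killer cells, activated CD8 T cells and some gamma-delta T cells, kill target cells by releasing granules. Perforin opens the target membrane, granzymes are serine proteases that enter and cleave proteins inside, and Fas ligand on the killer's surface can trigger death through the Fas receptor. Interferon-gamma is secreted by the same cells, and the T-box transcription factors T-bet (Tbx21) and Eomesodermin (Eomes) turn on many of these genes. Most thymocytes are immature and carry little of this programme, which in the thymus is known from innate-like and gamma-delta T cells, natural killer cells and some maturing T cells.

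Messenger RNA was measured in thymocytes labelled double-negative, the precursors with neither CD4 nor CD8 on their surface, sorted from untreated C57BL/6 mice. Control mice were Toxf/f, with both copies of the gene Tox flanked by recombination sites. The other genotype was Toxf/fPdcd1Cre, which carries the same Tox alleles and a Cre recombinase named for Pdcd1. The labels do not say in which cells this Cre was active, and the controls carried no Cre. Each genotype had 3 samples, replicates 1 and 2 at 3 weeks of age and replicate 3 at 4 weeks. Whether each sample was a separate animal is not in the labels, and the p-values therefore speak only of library-to-library spread. That spread holds a difference of age in both genotypes and, as given below, of a chromosome Y gene in Toxf/fPdcd1Cre. How much of it is technical is not known.

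Before any result, some facts about the libraries bear on its reading. For Toxf/f, the tables deposited as replicates 1 and 2 were the same in every value and in the library named in their header, and were counted as 1 library, called the shared Toxf/f library below. This left 2 Toxf/f libraries against 3 Toxf/fPdcd1Cre libraries, with 14245492 to 16199195 counts each. Tox itself, the targeted gene, had 1896 and 1746 counts with the Toxf/f genotype and 281, 257 and 201 with Cre. Transcripts of Cd8a stood at 1395 to 2017 CPM (counts scaled to a common library size) and those of Cd4 at 718 to 982 CPM, which goes against double-negative cells alone; the extraction text names the sorted cells as DN2, an early double-negative stage. Toxf/fPdcd1Cre replicate 1 stood apart with 1 count of the chromosome Y gene Ddx3y against 843 to 1354 elsewhere, and results that rest on it are given without it. Libraries were bulk RNA, so a change in the number of cells of a type and a change in RNA per cell cannot be told apart.

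No cytotoxic effector gene differed between the genotypes past the threshold, an adjusted p under 0.05 in edgeR's quasi-likelihood test. The granzyme genes Gzma and Gzmb came nearest from the higher side and the granule membrane gene Nkg7 from the lower side. The count was 0 of 8 tested genes in either direction, where 1.64% of all tested genes passed (0.135% higher and 1.51% lower). At an unadjusted p under 0.05 there were 2 higher (Gzma and Gzmb) and 1 lower (Nkg7), beside 3.08% and 7.26% of all tested genes, or 10.3% in either direction. DESeq2 called 2 of the 8, Gzma and Gzmb, both higher, beside 2.54% of all genes, and limma-voom called 0. Library values did not overlap between genotypes for 2 higher genes (Gzma and Gzmb) and 2 lower genes (Nkg7 and Tbx21), beside 12.6% and 13.5% of all tested genes, or 26.2% together. The median log2 fold change of the 8 genes was -0.16, against 0.03 over all tested genes, and their range ran from -0.78 to 1.33. The effector genes thus had fold changes on both sides of 0.

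**Figure D1:**
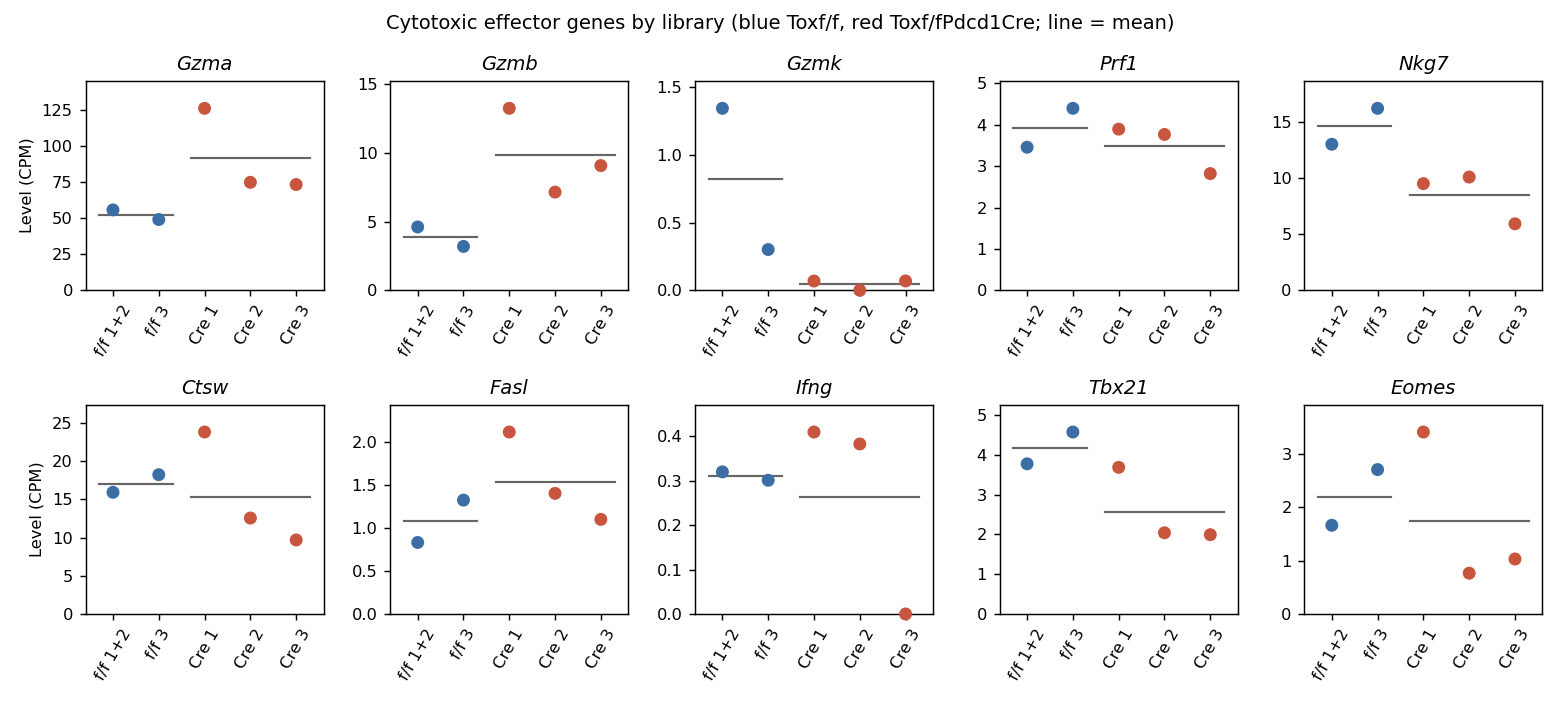
Levels of the 10 cytotoxic effector genes in CPM (y axis, linear from 0) in the 5 distinct libraries (x axis; f/f is Toxf/f and Cre is Toxf/fPdcd1Cre, with replicate numbers); lines are group means. Gzma and Gzmb are higher in every Toxf/fPdcd1Cre library, Nkg7, Tbx21 and Gzmk are lower in every one, and the other 5 genes overlap.

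Levels of different genes can be compared only per length, as FPKM. By this measure Gzma was far above the rest, at 61.1 ± 4.65 FPKM (SD, n = 2) in Toxf/f and 103 ± 38.4 FPKM (SD, n = 3) in Toxf/fPdcd1Cre libraries, and it ranked 916 among all 22298 genes by its mean. In Toxf/f libraries Nkg7 (17.5 FPKM) and Ctsw (14.1 FPKM) followed, then Gzmb (2.78 FPKM). Below them stood Tbx21 and Prf1 at 1.72 and 1.70 FPKM, whose ranges overlapped, and Gzmk, Fasl, Eomes and Ifng were all under 1 FPKM on average. In Toxf/fPdcd1Cre libraries the order was Gzma, Ctsw (12.4 FPKM), Nkg7 (9.68 FPKM) and Gzmb (6.78 FPKM), and Nkg7 overlapped in range with both Ctsw and Gzmb. Gzma alone made up 63.2% and 57.3% of the summed FPKM of the 10 genes in Toxf/f and 76.2%, 73.6% and 77.4% in Toxf/fPdcd1Cre libraries. Without Gzma, the remaining 9 genes summed to 37.5 and 43.0 FPKM in Toxf/f and to 46.2, 29.6 and 23.3 FPKM in Toxf/fPdcd1Cre libraries, which overlap.

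Gzma encodes granzyme A, a tryptase of the cytotoxic granule. The gene (ENSMUSG00000023132) lies on the minus strand at chr13:113093825-113100981 in GRCm38. Its counts were 872 in the shared Toxf/f library and 816 in Toxf/f replicate 3, and 1850, 1175 and 1068 counts in Toxf/fPdcd1Cre replicates 1, 2 and 3. On the scaled libraries this was 55.8 and 49.1 CPM against 126, 75.0 and 73.5 CPM. All 3 Toxf/fPdcd1Cre libraries lay above both Toxf/f libraries, with replicate 1 well above the other two. The log2 fold change was 0.80 ± 0.222 (SE), a 1.75-fold higher level, with an adjusted p of 0.129 in edgeR. Without Toxf/fPdcd1Cre replicate 1 it was 0.46 (adjusted p = 0.0903, edgeR). Its call depended on the tool and the filter: DESeq2 gave an adjusted p of 0.0375, edgeR with no filter on low counts gave 0.0158, and edgeR without Toxf/fPdcd1Cre replicate 2 gave 0.043.

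Gzmb encodes granzyme B, which cleaves after aspartate and activates caspases in target cells. The gene (ENSMUSG00000015437) lies on the minus strand at chr14:56258838-56262260, at one end of a cluster of similar granzyme genes whose reads counting may split. The deposited counts of Gzmb were whole in every library. Gzmb held 72 and 53 counts in Toxf/f and 194, 112 and 132 in Toxf/fPdcd1Cre libraries, or 4.61 and 3.19 against 13.3, 7.15 and 9.08 CPM. The groups did not overlap, and replicate 1 was again the highest. The log2 fold change was 1.33 ± 0.319 (SE), a 2.52-fold higher level, with an adjusted p of 0.0678 in edgeR. It was 1.02 without Toxf/fPdcd1Cre replicate 1 (adjusted p = 0.0997, edgeR). DESeq2 gave an adjusted p of 0.0132, edgeR with no filter 0.0123 and edgeR without Toxf/fPdcd1Cre replicate 2 gave 0.0316.

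The promoters of these 2 granzyme genes and of Nkg7 are shown because these genes came nearest to a call, on opposite sides. Each is the 250 bases before the start of the gene in RefSeq on GRCm38.p6, printed 5′ to 3′ on the gene's strand. Capitals mark TGTGGT, the core letters that RUNX factors bind, and GGTGTG, the core of a T-box site, searched on both strands, so that ACCACA and CACACC are the same letters on the other strand; the motifs can overlap each other. The windows are chr13:113100982-113101231 for Gzma, chr14:56262335-56262584 for Gzmb and chr7:43436888-43437137 for Nkg7.
Gzma: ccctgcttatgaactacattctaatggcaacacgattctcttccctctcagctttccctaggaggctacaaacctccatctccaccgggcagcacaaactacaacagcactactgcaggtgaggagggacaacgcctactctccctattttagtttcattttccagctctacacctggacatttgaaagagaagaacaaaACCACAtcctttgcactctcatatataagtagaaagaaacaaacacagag
Gzmb: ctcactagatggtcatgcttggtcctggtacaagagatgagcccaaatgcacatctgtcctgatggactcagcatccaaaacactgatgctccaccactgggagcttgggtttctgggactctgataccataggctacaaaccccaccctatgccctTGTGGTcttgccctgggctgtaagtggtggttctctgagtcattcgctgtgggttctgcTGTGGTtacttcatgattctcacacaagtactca
Nkg7: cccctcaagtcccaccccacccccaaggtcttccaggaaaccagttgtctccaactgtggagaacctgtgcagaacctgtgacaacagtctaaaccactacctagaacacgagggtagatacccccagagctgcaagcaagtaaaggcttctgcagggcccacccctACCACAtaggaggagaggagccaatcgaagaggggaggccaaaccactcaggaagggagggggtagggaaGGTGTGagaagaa
Gzma held 1 match to the RUNX letters, beginning 50 bases before the start, and Gzmb held 2, beginning 93 and 34 bases before it. Nkg7 held 1 match to the RUNX letters 83 bases before the start and 1 to the T-box letters 13 bases before it. GENCODE, used for the gene positions here, starts Nkg7 earlier, at chr7:43437073. By that start the T-box match lies inside the gene. Of the 9 effector genes with a promoter entry, 4 held the RUNX letters (Gzma, Gzmb, Prf1 and Nkg7) and 3 the T-box letters (Gzmk, Nkg7 and Fasl). Over all 32851 promoters of the same length the shares were 14% and 16.3%. A match describes the letters only, and the genes on the higher and lower side both held RUNX letters.

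Gzmk encodes granzyme K, a tryptase related to granzyme A and its neighbour on the chromosome (ENSMUSG00000042385, minus strand, chr13:113171608-113225908). It went the other way from Gzma and Gzmb, at a low level. It held 21 counts in the shared Toxf/f library, 5 in Toxf/f replicate 3, and 1, 0 and 1 in the Toxf/fPdcd1Cre libraries. The groups did not overlap, but 21 of the 26 Toxf/f counts came from 1 library. The summed counts gave an 18.1-fold lower level in Toxf/fPdcd1Cre libraries, with an exact 95% binomial interval of 4.53 to 157 that covers counting error only. The ratio was 6.75 (1.11 to 70.9) without the shared Toxf/f library and 30.1 (7.37 to 265) without the other one. Leaving out 1 of the Toxf/fPdcd1Cre libraries gave 24.4 (4.00 to 999), 11.8 (2.95 to 102) and 24.5 (4.02 to 1003) for replicates 1, 2 and 3. The filter on low counts left Gzmk without a test. Esm1 lies inside the GENCODE span of Gzmk on the other strand, with 9 to 13 counts in every library. By RefSeq, Gzmk starts just below chr13:113180966, and Esm1 (from 113209659) lies outside it. No source used here says whether reads were counted by strand.

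The other granzyme genes were close to absent. Of the 7 (Gzmc, Gzmd, Gzme, Gzmf, Gzmg, Gzmm and Gzmn) 0 passed the filter. Gzmc, next to Gzmb in the cluster, held 6 and 10 counts in Toxf/f and 18, 9 and 1 in Toxf/fPdcd1Cre libraries. Gzmm, which lies on another chromosome, held 7 and 7 against 4, 7 and 10 counts. The 6 genes that share the cluster with Gzmb (all but Gzmm) summed to 11 and 18 counts in Toxf/f and 24, 10 and 1 in Toxf/fPdcd1Cre libraries. These levels overlap between the genotypes.

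Prf1 encodes perforin, the pore-forming protein without which granzymes do not reach the target's cytosol. It lies on the plus strand at chr10:61297833-61304680 (ENSMUSG00000037202). It held 54 and 73 counts in Toxf/f and 57, 59 and 41 in Toxf/fPdcd1Cre libraries, or 3.46 and 4.4 against 3.89, 3.77 and 2.82 CPM. The groups overlapped, and the log2 fold change was -0.17 ± 0.327 (SE; adjusted p = 0.940, edgeR). Perforin transcripts thus differed by less than the spread between libraries, while Gzmb stood higher in the same libraries: there were 1.33 and 0.726 Gzmb counts per Prf1 count in Toxf/f and 3.40, 1.90 and 3.22 in Toxf/fPdcd1Cre libraries. Such a ratio within a library does not depend on how libraries are scaled.

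Nkg7 encodes a membrane protein of cytotoxic granules that is needed for their release. It lies on the plus strand at chr7:43437073-43438249 (ENSMUSG00000004612). It held 203 and 269 counts in Toxf/f and 139, 158 and 86 in Toxf/fPdcd1Cre libraries, or 13.0 and 16.2 against 9.5, 10.1 and 5.92 CPM. Every Toxf/fPdcd1Cre library was below both Toxf/f libraries, replicate 3 the lowest. Its log2 fold change was -0.78 ± 0.250 (SE), a 1.72-fold lower level that did not pass (adjusted p = 0.215, edgeR; 0.176, DESeq2). Since Gzma was higher and Nkg7 lower in every Toxf/fPdcd1Cre library, their ratio within a library had to separate the genotypes. There were 4.30 and 3.03 Gzma counts per Nkg7 count in Toxf/f and 13.3, 7.44 and 12.4 in Toxf/fPdcd1Cre libraries.

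Ctsw encodes cathepsin W, a papain-like protease found mainly in natural killer and CD8 T cells. It lies on the minus strand at chr19:5465043-5468507 (ENSMUSG00000024910), where its end overlaps the end of Fibp on the other strand. It held 249 and 303 counts in Toxf/f and 349, 197 and 141 in Toxf/fPdcd1Cre libraries. Toxf/fPdcd1Cre replicate 1 was the highest of all 5 libraries at 23.8 CPM and replicates 2 and 3 were the lowest at 12.6 and 9.70 CPM, on either side of the Toxf/f values of 15.9 and 18.3 CPM. The log2 fold change was -0.15 ± 0.308 (SE; adjusted p = 0.942, edgeR), and -0.66 without replicate 1 (adjusted p = 0.135, edgeR).

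Fasl encodes Fas ligand, a trimeric death ligand, and lies on the minus strand at chr1:161780689-161788495 (ENSMUSG00000000817). Its counts were 13 and 22 in Toxf/f and 31, 22 and 16 in Toxf/fPdcd1Cre libraries, which overlap on the scale of CPM. Fitted in edgeR, the log2 fold change was 0.51 ± 0.521 (SE; adjusted p = 0.850). It was 0.17 without Toxf/fPdcd1Cre replicate 1, the highest library, and 0.22 and 0.88 without the shared Toxf/f library and the other Toxf/f library.

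Ifng, the gene of interferon-gamma (ENSMUSG00000055170, plus strand, chr10:118441046-118445892), was at the limit of detection. It held 5 and 5 counts in Toxf/f and 6, 6 and 0 in Toxf/fPdcd1Cre libraries and received no test. The summed counts of 10 and 12 gave a ratio of Toxf/f to Toxf/fPdcd1Cre of 1.16, with a 95% counting interval of 0.449 to 2.93. The ratio was 0.784 (0.303 to 1.98) without Toxf/fPdcd1Cre replicate 3, which held 0 counts, and 1.56 (0.515 to 5.23) without replicate 1. A difference within that interval was not detectable at this depth.

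Tbx21, which encodes T-bet, lies on the minus strand at chr11:97098071-97115331 (ENSMUSG00000001444). It held 59 and 76 counts in Toxf/f and 54, 32 and 29 in Toxf/fPdcd1Cre libraries, or 3.78 and 4.58 against 3.69, 2.04 and 2.0 CPM. The groups did not overlap, but Toxf/fPdcd1Cre replicate 1 lay just under the shared Toxf/f library. The log2 fold change was -0.70 ± 0.378 (SE; adjusted p = 0.585, edgeR), and -1.09 without replicate 1 (adjusted p = 0.125, edgeR).

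Eomes, the gene of the related factor Eomesodermin (ENSMUSG00000032446, plus strand, chr9:118478212-118486132), was split by 1 library. It held 26 and 45 counts in Toxf/f and 50, 12 and 15 in Toxf/fPdcd1Cre libraries, so that replicate 1 was the highest of all 5 libraries and replicates 2 and 3 the lowest. The log2 fold change was -0.34 ± 0.603 (SE; adjusted p = 0.931, edgeR) and -1.32 without replicate 1 (adjusted p = 0.190, edgeR). Zbtb16 and Il18r1, a transcription factor of innate-like T cells and a subunit of the interleukin-18 receptor, were picked after their values were seen because they were also highest in that library. Zbtb16 stood at 18.4 CPM there against 2.24 to 6.45 CPM in the other 4 libraries, and Il18r1 at 49.2 CPM against 10.5 to 20.2 CPM.

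**Figure D2:**
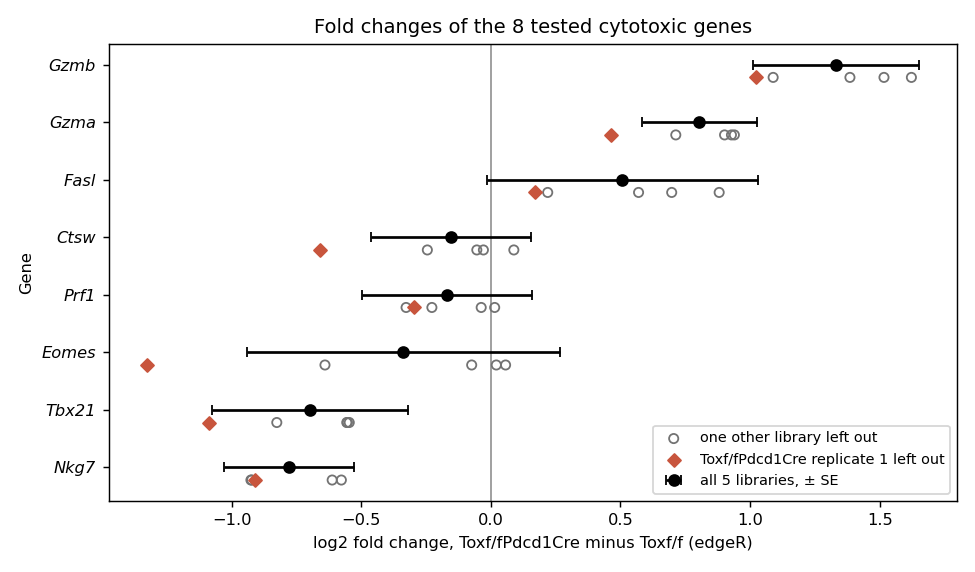
log2 fold changes (x axis, Toxf/fPdcd1Cre minus Toxf/f) of the 8 tested cytotoxic effector genes (y axis) with all 5 libraries (black, ± SE) and with 1 library left out (open circles, or red diamonds for Toxf/fPdcd1Cre replicate 1). Gzmb and Gzma stay above 0 and Nkg7 and Tbx21 below 0 in each case, while Eomes moves from -0.34 to -1.32 without replicate 1.

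Likeness of pattern was measured as the root mean square distance between centred log2 levels over the 5 libraries, among 130 other tested genes of the lists used here. The gene nearest to Gzma was Trdc, which encodes the constant region of the delta receptor chain (distance 0.116), followed by Blk (0.165), a kinase of B cells and some gamma-delta T cells. Trdc was also nearest to Gzmb (0.207), followed by Gzma itself (0.266). Prf1 lay nearest to Tyrobp and Fcgr3 (0.049 and 0.059), which, like Prf1, varied little, and flat genes lie near one another by this measure. The nearest to Nkg7 were Zbtb46 and Id2 (0.119 and 0.165), to Tbx21 Srgn and Kit (0.118 and 0.121), to Fasl Cst7 and Maf (0.136 and 0.168), to Ctsw Siglech and Klrd1 (0.215 and 0.227) and to Eomes Siglech and Kit (0.236 and 0.252).

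Of the gamma-delta T cell markers matched by symbol, Trdc and Cd163l1 rose, and 4 other tested markers did not pass. Trdc averaged 143 ± 23.6 CPM in Toxf/f (SD, n = 2) and rose to 260 ± 57.2 CPM with Cre (SD, n = 3), by 0.86 ± 0.187 on the log2 scale (SE; adjusted p = 0.0437, edgeR). The scavenger receptor gene Cd163l1, marker of a gamma-delta T cell subset, rose by 3.35 on the log2 scale (edgeR adjusted p = 0.00552), or 2.59 without Toxf/fPdcd1Cre replicate 1. Of 11 listed markers 7 matched a gene by symbol and 6 were tested. All 6 had fold changes above 0, as did 7733 of all 14121 tested genes. Past the threshold 2 were higher, beside 0.135% of all tested genes. Scart2 was among the markers without a match, and 5830411N06Rik, an older symbol of that gene, was called higher in edgeR. Sox13, Il23r and Maf overlapped between genotypes, with log2 fold changes of 0.10, 0.05 and 0.28. Blk did not overlap, at 5.76 and 6.08 CPM in Toxf/f and 17.9, 10.7 and 8.12 CPM in Toxf/fPdcd1Cre libraries. Its log2 fold change was 1.04 and did not pass (adjusted p = 0.177, edgeR). The summed level of the matched markers was 203 and 176 CPM in Toxf/f and 477, 292 and 303 CPM in Toxf/fPdcd1Cre libraries. Counted against Trdc, Gzma overlapped between the genotypes, with 0.350 and 0.389 Gzma counts per Trdc count in Toxf/f and 0.389, 0.339 and 0.316 in Toxf/fPdcd1Cre libraries. As Trdc was the gene nearest to Gzma over these same libraries, this overlap restates their likeness and is not separate evidence. The ratio to Trdc for Gzmb was 0.0289 and 0.0253 in Toxf/f and 0.0407, 0.0323 and 0.0391 in Toxf/fPdcd1Cre libraries, which did not overlap. That for Nkg7 was 0.0814 and 0.128 against 0.0292, 0.0456 and 0.0255. The calls of Trdc and Cd163l1 were lost without either Toxf/f library (adjusted p = 0.115 to 0.588, edgeR), and that of Trdc also without Toxf/fPdcd1Cre replicate 3 (adjusted p = 0.0666). Trdc passed in 9 of 18 alternatives and missed with the size factors of DESeq2 (adjusted p = 0.0551, edgeR), upper-quartile factors (0.0907), age as a covariate (0.0789) and each limma fit on FPKM (0.114 to 0.318). The part of a change in gamma-delta T cell number in the granzyme levels was not tested.

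**Figure D3:**
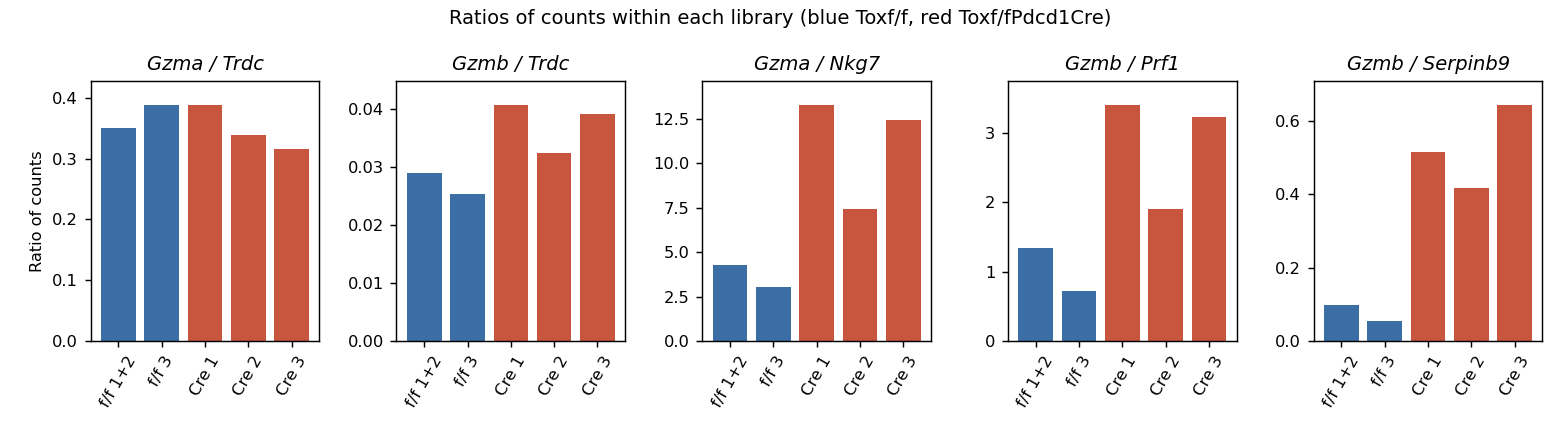
Ratios of counts between pairs of genes within each library (y axis, linear from 0; x axis, libraries, with f/f for Toxf/f and Cre for Toxf/fPdcd1Cre). The Gzma to Trdc ratio overlaps between genotypes, from 0.316 to 0.389, while Gzmb to Trdc, Gzma to Nkg7, Gzmb to Prf1 and Gzmb to Serpinb9 are higher in every Toxf/fPdcd1Cre library. Trdc was the gene nearest to Gzma over these libraries, so the Gzma to Trdc overlap restates that likeness. Gzma to Nkg7 and Gzmb to Serpinb9 had to separate, because the genes of each pair were already apart in opposite directions.

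Natural killer cell markers gave a divided picture. The receptor genes Klrb1c (NK1.1) and Klrk1 (NKG2D), which innate-like and gamma-delta T cells can also carry, rose with log2 fold changes of 1.80 and 1.69 (adjusted p = 0.0348 and 0.0145, edgeR). Both calls were lost without either Toxf/f library (adjusted p = 0.197 to 0.381, edgeR). Klrk1 passed in 14 of 18 alternatives and Klrb1c in 10, which missed with upper-quartile factors (adjusted p = 0.0878, edgeR), age as a covariate (0.101), limma-voom (0.0653) and limma on FPKM (0.099 to 0.342). Ncr1, the defining receptor NKp46, held 2 to 5 counts in every library, and Klra8 held 0 in all. Klre1 was not tested and held 0 and 5 counts in Toxf/f and 6, 11 and 9 in Toxf/fPdcd1Cre libraries. Tyrobp and Fcer1g, signalling adaptors of natural killer and myeloid cells, had log2 fold changes of -0.22 and -0.36 and did not pass (adjusted p = 0.730 and 0.571, edgeR). Of 13 listed markers 9 were tested, 2 higher and 0 lower, beside 0.135% and 1.51% of all tested genes. Outside the list, the receptor genes Klrc2 and Klra5 were among the 19 genes called higher over the whole table. They were picked after the results were seen. The summed level of the list overlapped between genotypes, at 107 and 111 CPM in Toxf/f and 134, 113 and 93.4 CPM in Toxf/fPdcd1Cre libraries.

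Summed levels of dendritic cell, B and plasma cell, and macrophage and granulocyte markers were lower in every Toxf/fPdcd1Cre library, as Nkg7 and Tbx21 were. The sum of gamma-delta T cell markers was higher in every one, and those of the other marker lists overlapped. The part of these cell types in the effector gene levels was not tested. Over all 14121 tested genes 1.51% were lower and 0.135% higher past the threshold, and 6388 had fold changes below 0. Of 10 markers of mature CD8 T cells 4 were lower and 0 higher, with summed levels of 4874 and 4176 CPM in Toxf/f and 3883, 4872 and 4677 CPM in Toxf/fPdcd1Cre libraries, most of it Cd8a, Cd8b1 and Ccr9. Of 10 dendritic cell markers 2 were lower and all 10 had fold changes below 0, with summed levels of 1800 and 1897 CPM against 1364, 1497 and 1572 CPM; Ccr9, which thymocytes also carry, made up most of that sum. Of 7 regulatory T cell markers 3 were lower and 0 higher, and their sums overlapped at 246 and 275 against 260, 208 and 244 CPM. Most of that sum was Il2ra and Ikzf2, which overlapped between genotypes. Foxp3, 1 of the 3 lower genes, stood at 7.36 and 9.76 against 0.41, 0.38 and 0 CPM (adjusted p = 0.00127, edgeR). B and plasma cell markers had 1 of 9 lower (311 and 312 against 268, 270 and 250 CPM in sum). Most of that sum was Xbp1, which overlapped between genotypes (198 and 170 against 174, 178 and 181 CPM). Macrophage and granulocyte markers had 0 of 9 past the threshold (697 and 592 against 309, 451 and 413 CPM in sum). In Toxf/f most of that sum was Lyz2, at 427.2 and 353.6 against 105, 214.3 and 218.5 CPM. Fold changes were above 0 for 3 of the 9 and below 0 for 6. Mast cell and basophil markers had 0 of 4 tested past the threshold (21.6 and 34.5 against 31.6, 17.4 and 19.8 CPM).

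**Figure D4:**
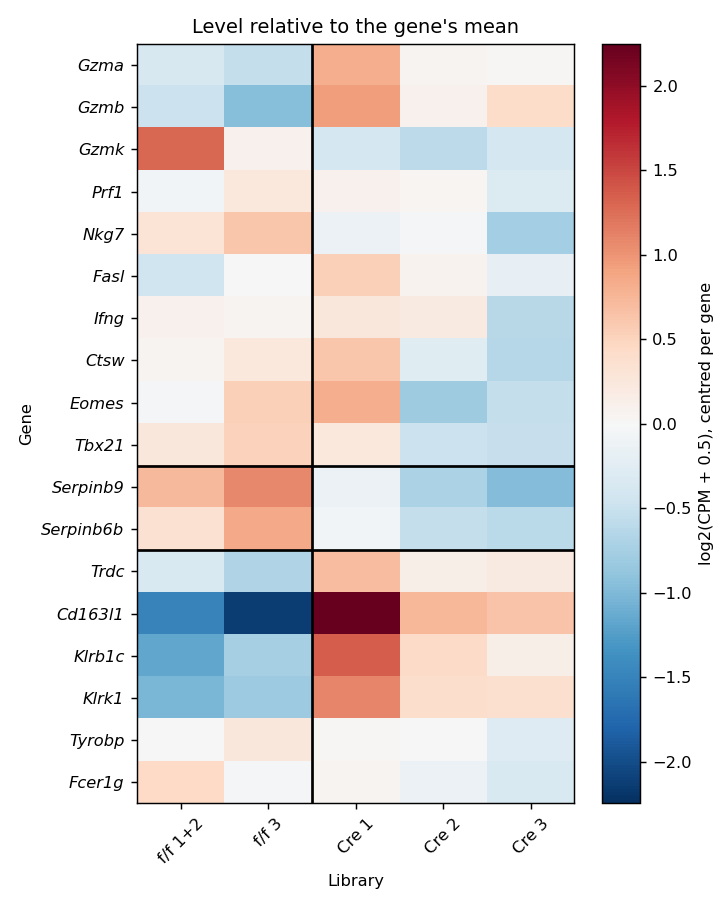
Levels of the effector genes (top block), 2 granzyme inhibitors (middle) and gamma-delta T and natural killer cell markers (bottom) in the 5 libraries, as log2(CPM + 0.5) minus the gene's mean (colour; red above, blue below the mean). Gzma, Gzmb, Trdc, Cd163l1, Klrb1c and Klrk1 are below their means in both Toxf/f libraries and above them in the other 3, and Eomes and Ctsw are highest in Toxf/fPdcd1Cre replicate 1.

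Both genes called in the list of granule maturation and release encode granzyme inhibitors. The median log2 fold change of 15 tested genes of granule maturation and release was -0.17. Of these 2 fell and 0 rose, beside 1.51% and 0.135% of all tested genes. The 2 were Serpinb9, whose protein inhibits granzyme B, and Serpinb6b, whose protein inhibits granzyme A in the mouse. Serpinb9 held 737 and 997 counts in Toxf/f and 377, 268 and 205 in Toxf/fPdcd1Cre libraries, and fell by 1.5 on the log2 scale (SE 0.220, adjusted p = 0.00563, edgeR). Serpinb6b held 729 and 1107 counts against 514, 396 and 347, and fell by 1.01 (SE 0.197, adjusted p = 0.0266, edgeR). There were 0.0977 and 0.0532 Gzmb counts per Serpinb9 count in Toxf/f and 0.515, 0.418 and 0.644 in Toxf/fPdcd1Cre libraries. For Gzma per Serpinb6b the ratios were 1.2 and 0.737 against 3.60, 2.97 and 3.08. Both ratios had to separate the genotypes, because the genes of each pair were already apart in opposite directions. Many cells other than killers carry these inhibitors. Leaving out either Toxf/f library ended both calls in edgeR: the adjusted p was 0.0628 and 0.0823 without the shared one and 0.189 and 0.447 without the other, and that of Serpinb6b also without Toxf/fPdcd1Cre replicate 3 (adjusted p = 0.0988). Serpinb9 passed in 15 of 18 alternatives and Serpinb6b in 10, which also missed with upper-quartile factors (adjusted p = 0.056, edgeR), age as a covariate (0.078) and limma on FPKM (0.0637 to 0.259).

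The median log2 fold change of 10 death ligands, receptors and adaptors was -0.25. Among them 1 fell and 0 rose, beside 1.51% and 0.135% of all tested genes. The 1 was Lta, the gene of lymphotoxin alpha, with 75 and 71 counts in Toxf/f and 19, 21 and 16 in Toxf/fPdcd1Cre libraries (log2 fold change -1.86 ± 0.366 SE, adjusted p = 0.0277, edgeR). Its neighbour Tnf stood at -1.53 and did not pass (adjusted p = 0.0587, edgeR). The call of Lta held without Toxf/fPdcd1Cre replicate 1 and was lost without each of the other libraries (adjusted p = 0.0577 to 0.267, edgeR). Lta passed in 11 of 18 alternatives, missing also with age as a covariate (adjusted p = 0.0743, edgeR) and limma on unfiltered FPKM (0.0672).

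Genes of interferon-gamma reception and response had 4 of 11 tested members lower and 0 higher, beside 1.51% and 0.135% of all tested genes. Their median log2 fold change was -0.46, although Ifng itself was at the limit of detection in both genotypes. The chemokine Cxcl9, a target of interferon-gamma, fell from 37.6 ± 7.72 to 6.56 ± 2.02 CPM (SD, n = 2 and 3), by 2.52 on the log2 scale (adjusted p = 0.000474, edgeR), and kept its call without any 1 of the 5 libraries. Cxcl10, which type I interferon also induces, fell by 1.61, and Nlrc5, an activator of MHC class I genes, fell by 1.45 (adjusted p = 0.0172 and 0.00296, edgeR). Leaving out Toxf/f replicate 3 ended the call of Nlrc5 (adjusted p = 0.0988), and the call of Cxcl10 ended without either Toxf/f library or Toxf/fPdcd1Cre replicate 3 (adjusted p = 0.0575 to 0.305).

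Of 26 tested regulators and companions of cytotoxic genes 3 fell and 0 rose, beside 1.51% and 0.135% of all tested genes. The median log2 fold change of the 26 was -0.09. Ccl5, a chemokine that cytotoxic cells store and release, fell by 1.85 (adjusted p = 0.0143, edgeR), and by 2.44 without Toxf/fPdcd1Cre replicate 1. Zbtb7b, the CD4 lineage factor ThPOK, which restrains cytotoxic genes in CD4 T cells, fell by 1.76 (adjusted p = 0.00590), and Klf2, a factor of T cell migration and quiescence, fell by 1.23 (adjusted p = 0.00301). Zbtb7b and Ccl5 lost their calls without either Toxf/f library (adjusted p = 0.0529 to 0.294, edgeR) and Klf2 without Toxf/f replicate 3 (adjusted p = 0.102).

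**Figure D5:**
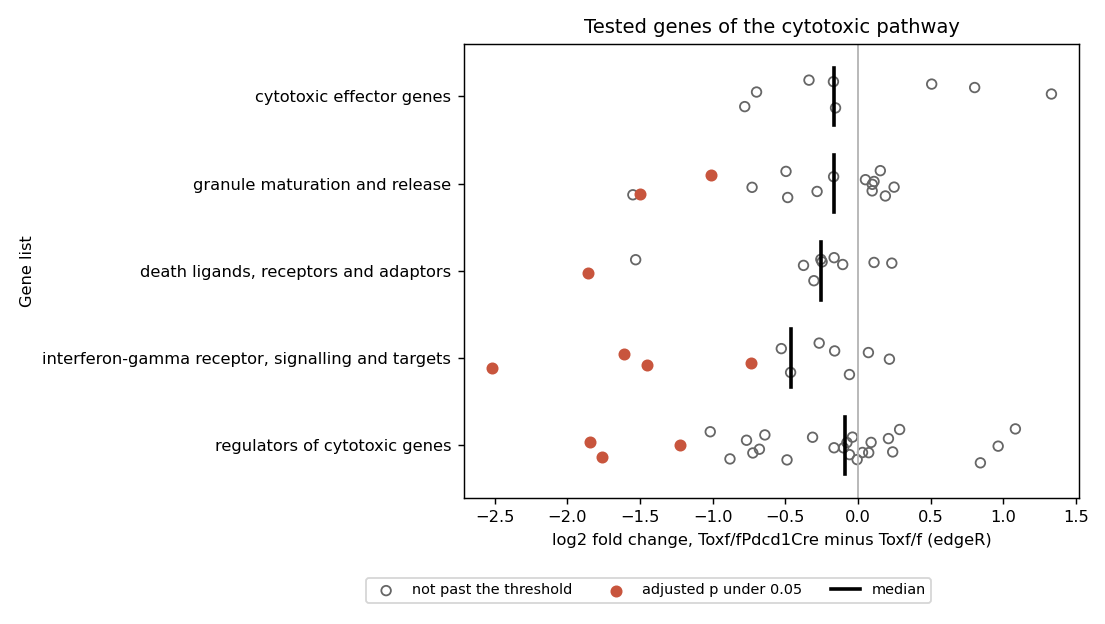
log2 fold changes (x axis, Toxf/fPdcd1Cre minus Toxf/f) of tested genes in the effector list and 4 lists of related genes (y axis); each point is a gene, filled where its adjusted p is under 0.05, and bars are medians. The filled points all lie below 0, and the effector list has none.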

How the data were processed

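Messenger RNA of sorted mouse thymocytes was sequenced in 6 samples, 3 per genotype, with NEBNext Ultra libraries, per the labels' protocols. The authors deposited 1 table per sample holding, for each gene, an estimated count and its FPKM, per the file headers. Named in the submitters' processing notes are fastp 0.18.0, HISAT2 and StringTie 1.3.1, with no role for each. Genome build, annotation, counter and strand setting: not given in the sources used here. Per library, 8.81% to 9.84% of genes had a deposited expected count that was not whole, so counts were rounded.

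The identical Toxf/f files were counted as 1 library. Genes were filtered with filterByExpr, scaled by TMM and tested with edgeR 4.0.16 (quasi-likelihood, R 4.3.3), with Benjamini-Hochberg adjustment over all 14121 genes tested. The SE is the log2 fold change divided by the root of the F statistic. CPM used TMM-scaled library sizes. Alternatives used DESeq2 1.42.0, limma 3.58.1, other scaling, filters and covariates, and each library left out; the ratios of low counts were added after seeing the data. The tests were checked on simulated counts. Positions come from GENCODE M21 (GRCm38) by Ensembl identifier, and promoters from RefSeq; the build behind the files may differ.

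The effector genes and lists were chosen with earlier results of these data known, and 5 listed genes matched no symbol. Named were all effector genes and Tox, up to 4 called genes of each related list (or, with none called, the 2 with the highest mean FPKM), and up to 2 called and the 2 highest of each marker list. Of the marker lists this was followed for gamma-delta T and natural killer cells. The others are described mainly by counts and sums. One gene that the rule names is not reported here. Plots were made in matplotlib 3.10.9.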

Additional observations from a re-analysis of the deposited data

How the results depend on the processing

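Of the settings tried, those that changed how many effector genes passed the threshold all added Gzmb, and Gzma except where stated. The count of 0 became 2 (Gzma and Gzmb) with no filter on low counts, with DESeq2 and without Toxf/fPdcd1Cre replicate 2, and 1 (Gzmb) with the identical files counted as 2 libraries. With 1 library left out the count ranged from 0 to 2. With the replicate number as a block it was 2 (Gzma and Gzmb), whether the shared library took number 1 or 2. These numbers are not shown to pair samples: fewer than 3 distinct pairs exist, and deviations of same-numbered libraries correlated at -0.174 or 0.088 (shared library with Toxf/fPdcd1Cre replicate 1 or 2) and -0.146 (replicate 3). Over 18 alternatives the adjusted p ranged from 0.000132 to 0.809 for Gzma and from 0.00228 to 0.614 for Gzmb, and Gzma, Gzmb, Nkg7 and Tbx21 kept their direction in all 18. Uncalled log2 fold changes turned their sign in 4 cases: Prf1 and Eomes without Toxf/f replicate 3, Eomes (0.0212) without Toxf/fPdcd1Cre replicate 2 and Ctsw without its replicate 3. With 1 library left out, Prf1 ranged from -0.33 to 0.0149, Ctsw from -0.66 to 0.0888 and Eomes from -1.32 to 0.0570. limma on filtered FPKM gave no value for Fasl and Eomes. The 232 genes called over the whole table became 417 with no filter, 359 with DESeq2, 126 with limma on log2(FPKM + 0.1), 44 with limma on log2(FPKM + 1) and no filter, 125 with age as a covariate, 435 and 868 with the replicate block (shared library numbered 1 and 2) and 380 with the identical files counted as 2 libraries. It ranged from 31 to 606 with 1 library left out: 49 without the shared Toxf/f library, 31 without the other, and 606 and 114 without Toxf/fPdcd1Cre replicates 1 and 3. Without a Toxf/f library the lone one is assumed to vary like the other genotype. The cause was not tested. With 5 libraries and few counts, only large differences in Gzmk, Ifng, Fasl and Eomes could be seen.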
